A study of Mus musculus with 7 samples.

Results

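The 7 genes described here encode receptors and receptor partners for neuropeptides, plus a neuropeptide: Nmur1, Vipr1, Vipr2, Calcrl, Ramp1, Ramp3 and Calca. They were chosen by name, as rows of the deposited tables whose symbol is on this list, and all 7 were found among 55335 gene identifiers. All 7 passed the filter on low counts that left 17015 genes for testing, Vipr1 only through 3 of its allograft libraries. The set holds no adrenergic receptor, so it is described as neuropeptide receptors and Calca.

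Neuropeptides are short signalling peptides released by nerve endings and by some immune cells. Type 2 innate lymphoid cells (ILC2s) are tissue-resident lymphocytes without antigen receptors that make interleukin 5, interleukin 13 and amphiregulin, and they sense several neuropeptides. NMUR1 is the receptor for neuromedin U and signals through Gq and calcium, which is known to activate ILC2s. VIPR1 and VIPR2, also called VPAC receptors, bind vasoactive intestinal peptide and raise cAMP through Gs. CALCRL forms a receptor only with a receptor activity-modifying protein (RAMP): with RAMP1 it binds calcitonin gene-related peptide (CGRP), and with RAMP2 or RAMP3 it binds adrenomedullin. Calca encodes both calcitonin and alpha-CGRP by alternative splicing, which a count per gene cannot separate.

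RNA was measured in cells sorted from mouse hearts as CD45+ Lineage-ST2+ ILC2s, in 3 libraries of naive hearts and 4 libraries of heart allografts. The grafts came from Balb/C donors placed in C57BL/6 (B6) recipients, a model of acute rejection, and were taken 7 days after transplantation. The labels of the naive libraries carry the same time of 7 days and no treatment. Each library pooled cells of 4 to 7 hearts. The labels give no genotype, sex, age or strain of the naive hearts, and do not say whether ILC2s in a graft came from donor or recipient. Nothing in the labels ties a pool to separate sorts, so p-values measure the spread between these libraries, which may be partly technical.

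Total counts ranged from 29107326 to 53044907 per library, so that a count of 0 allowed up to 3 counts, or 0.0566 to 0.103 CPM (counts scaled to the same total in every library). Genes with any count numbered 15820, 20254 and 13864 in naive replicates 1 to 3 and 19235 to 21354 in the allografts. Naive replicate 2 stood apart from the other 6 libraries. Its 12 ILC2 markers summed to 204 CPM, against 6449 and 8479 CPM in the other naive libraries and 7141 to 7735 CPM in the allografts. Il1rl1, which encodes ST2, was at 6.79 CPM there, and Il13 was at 0. Mitochondrial genes made up 26.5% of its counts against 2.04% to 3.11% elsewhere, 9 kidney genes summed to 10523 CPM against 79.2 to 288 CPM, and 13 endothelial genes to 689 CPM against 16.5 to 52.2 CPM. Among markers of other cells, T cell genes summed to 13.7 to 179 CPM in naive and 200 to 248 CPM in allograft libraries, and dendritic cell genes to 12.7 to 31.8 CPM and 82.6 to 109 CPM. Cd3g alone made up most of the T cell sum of the allografts, with 6.00 to 124 CPM in naive and 175 to 219 CPM in allograft libraries. Cd3d was highest in naive replicate 3, at 32.5 CPM against 3.57 to 8.64 CPM in the allografts, and so was Cd4, at 11.6 CPM against 0 to 0.721 CPM. Mast cell and basophil markers totalled 403 CPM in naive replicate 1, 15.2 CPM in replicate 2 and 291 CPM in replicate 3. Their allograft totals, 186 to 224 CPM, lay below naive replicates 1 and 3 and above naive replicate 2, as did Calca, Ramp1 and Vipr2. Among these markers Mcpt8 overlapped, and Fcer1a was higher in the allografts (9.42 to 20.3 CPM against at most 5.60 CPM). In bulk libraries such as these, fewer cells of a type and less RNA per cell cannot be told apart. The comparisons are therefore given with and without naive replicate 2. The part of these markers in the results was not tested.

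In the allografts Calca was the most abundant of the 7 transcripts and Vipr1 the least. On the scale of FPKM, fragments scaled by transcript length and library size, which allows genes to be compared, the allograft levels were 277 ± 20.3 for Calca, 174 ± 15.2 for Ramp3 and 88.1 ± 10.9 for Ramp1 (SD, n = 4). These ranges did not overlap: the lowest Calca value was 251, Ramp3 lay between 162 and 196, and the highest Ramp1 value was 102. Far lower followed Nmur1 at 8.47 ± 2.97, Vipr2 at 7.95 ± 2.07 and Calcrl at 4.76 ± 1.21 FPKM, whose ranges overlapped with one another. Vipr1 had 0.165 ± 0.114 FPKM. In the list of all genes ordered by FPKM, Calca stood at rank 203 to 247 in the allografts, 139 in naive replicate 1 and 66 in naive replicate 3. It stood at rank 1723 in naive replicate 2, where Ramp3 was above it (24.7 against 23.3 FPKM).

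**Figure D1:**
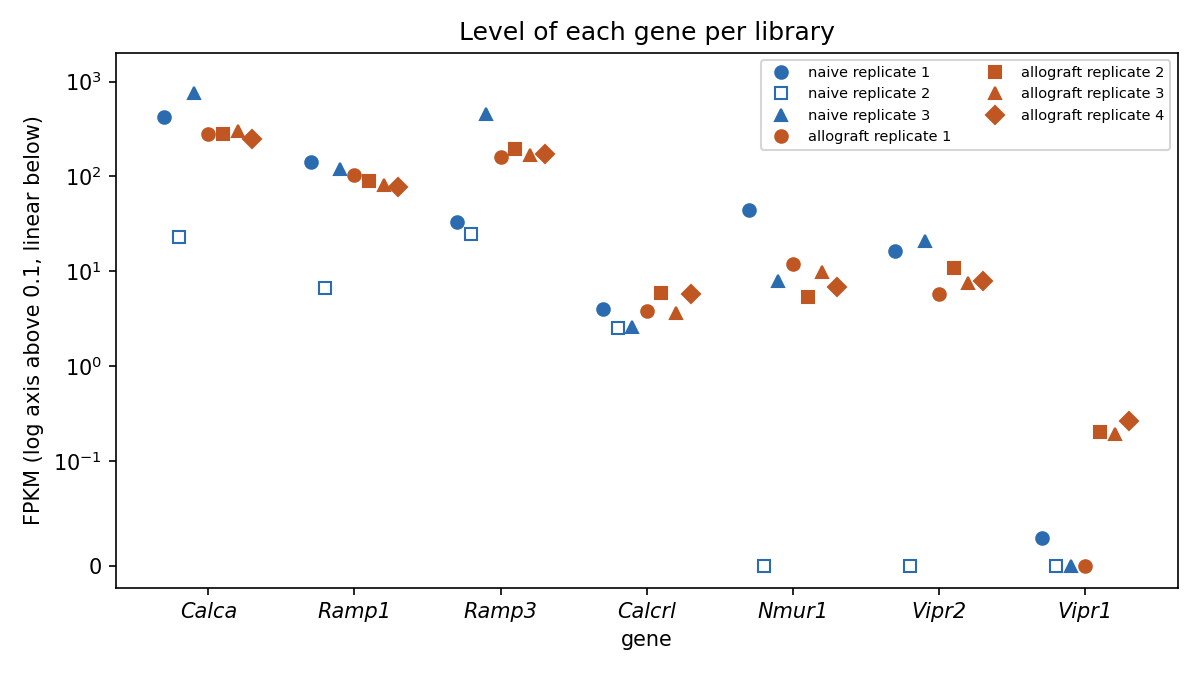
Level of each gene in each library, in FPKM on an axis that is logarithmic above 0.1 and linear below. Blue marks naive and orange allograft libraries, symbols give the replicate number and the open square is naive replicate 2. In the allografts Calca (251 to 300 FPKM) lies above Ramp3 and Ramp1, while Nmur1 and Vipr2 sit at 0 in naive replicate 2.

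With all 7 libraries, none of the 7 genes passed the test between allograft and naive hearts. The edgeR quasi-likelihood test with Benjamini-Hochberg adjustment over all genes called 0 of the 7, and 0 of the 7 had an unadjusted p under 0.05. Over all tested genes the edgeR test called 0.0353% at an adjusted p under 0.05, and 1748 of 17015 had an unadjusted p under 0.05. DESeq2 on the same 7 libraries also called 0 of the 7, with Ramp3 given no adjusted p. The median log2 fold change of the 7 genes was -0.05, beside -0.01 over all genes tested. The lowest adjusted p was 0.653, for Vipr1. Standard errors of the log2 fold change reached 1.61 for Nmur1 and 2.27 for Vipr1, so even differences of several-fold could not be called in these libraries.

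Without naive replicate 2, Calca, Vipr2 and Ramp1 were lower in every allograft than in both remaining naive libraries. Their edgeR adjusted p-values were 0.0810, 0.0891 and 0.181, so that edgeR again called 0 of the 7, while 3.1% of all genes passed. The unadjusted edgeR p was under 0.05 for 3 of the 7, and for 3651 of the 18037 genes tested in this comparison. DESeq2 without this library, an alternative chosen after the data were seen, called the same 3 genes lower, where 3.03% of all genes with an adjusted p were called lower. The complete separation downward in CPM held for 3 of the 7 genes and for 7.49% of all genes tested. The median log2 fold change of the 7 genes moved to -0.60, while that of all tested genes moved to 0.23.

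**Figure D2:**
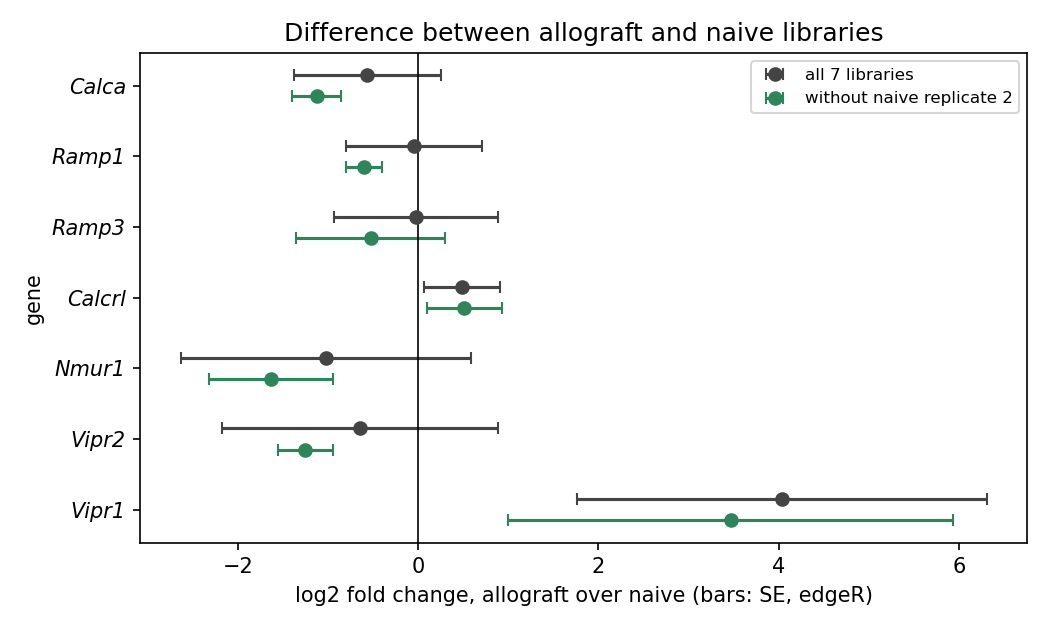
Log2 fold change of each gene, allograft over naive, from edgeR, with bars for the standard error. Grey points use all 7 libraries and green points leave out naive replicate 2. The shift is to the left for Calca, Ramp1, Ramp3, Nmur1 and Vipr2, with shorter bars, while Calcrl stays near 0.50.

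Calca, the ligand of the set, was lower in the allografts than in naive replicates 1 and 3. Its level was 808, 42.7 and 1455 CPM in order of naive replicates 1 to 3. In allograft replicates 1 to 4 it had 551, 537, 580 and 486 CPM. The allografts lay close together, below both naive libraries with high ILC2 markers and above naive replicate 2. Allograft over naive, this was a log2 fold change of -0.56 (SE 0.82, edgeR adjusted p = 0.903). Without naive replicate 2 it was -1.13 (SE 0.27, edgeR adjusted p = 0.0810), and with DESeq2 -1.23 (SE 0.41, adjusted p = 0.0234). Without naive replicate 3 it was 0.32 (edgeR adjusted p = 0.882). Calca (ENSMUSG00000030669) lies on chromosome 7 at 114631478 to 114636357, minus strand (GENCODE M21, GRCm38, the build mm10 named in the submitters' processing notes). Calcb, the gene of beta-CGRP, lies on the plus strand at 114718643 to 114723365, and reads of this close paralogue may not be fully separable. Calcb had 2.09 CPM in naive replicate 1, 1.88 CPM in allograft replicate 3 and 0.481 CPM in allograft replicate 4, and 0 counts in the other 4 libraries.

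The CGRP receptor partner Ramp1 was the other abundant transcript that separated from naive replicates 1 and 3. Ramp1 stood at 494, 22.0 and 414 CPM across naive replicates 1 to 3. In allograft replicates 1 to 4 it had 360, 316, 285 and 272 CPM. All 4 allografts were below naive replicates 1 and 3 and above naive replicate 2. The log2 fold change was -0.05 (SE 0.75, edgeR adjusted p = 0.996), and -0.60 (SE 0.20, adjusted p = 0.181) without naive replicate 2. DESeq2 without that library gave -0.69 (SE 0.25, adjusted p = 0.0382). Leaving out naive replicate 1 gave 0.40, and leaving out naive replicate 3 gave 0.24.

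Vipr2 showed the third such pattern. Its level was 82.6, 0 and 105 CPM in order of naive replicates 1 to 3. The allografts had 29.6, 55.2, 38.5 and 40.6 CPM. No count was found in naive replicate 2, which allows up to 0.0659 CPM. With all libraries the log2 fold change was -0.64 (SE 1.53, edgeR adjusted p = 0.949), and -1.25 (SE 0.31, adjusted p = 0.0891) without naive replicate 2. DESeq2 without that library gave -1.35 (SE 0.41, adjusted p = 0.00959).

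The promoters of these 3 genes are shown because the genes separated in the same direction. RefSeq windows matched all 7 genes (8 windows, as Nmur1 has a pair), on build GRCm38.p6, and the 250 bases before the start site were searched. Both strands were searched for the cAMP response element (CRE) core TGACG, the GATA core GATAA and the GC box GGGCGG. Capitals mark matches.
Calca, chr7:114636358-114636607, minus strand: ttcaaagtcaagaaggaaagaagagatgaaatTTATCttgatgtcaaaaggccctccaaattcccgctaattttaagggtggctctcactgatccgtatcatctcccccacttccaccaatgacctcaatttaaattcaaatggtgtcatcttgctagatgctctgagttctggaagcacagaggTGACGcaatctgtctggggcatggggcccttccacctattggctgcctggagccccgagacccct
Ramp1, chr1:91179572-91179821, plus strand: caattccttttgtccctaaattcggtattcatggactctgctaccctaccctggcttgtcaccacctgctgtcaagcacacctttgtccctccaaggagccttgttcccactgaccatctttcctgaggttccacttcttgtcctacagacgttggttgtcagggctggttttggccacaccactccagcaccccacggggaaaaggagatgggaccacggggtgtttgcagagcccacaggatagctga
Vipr2, chr12:116077476-116077725, plus strand: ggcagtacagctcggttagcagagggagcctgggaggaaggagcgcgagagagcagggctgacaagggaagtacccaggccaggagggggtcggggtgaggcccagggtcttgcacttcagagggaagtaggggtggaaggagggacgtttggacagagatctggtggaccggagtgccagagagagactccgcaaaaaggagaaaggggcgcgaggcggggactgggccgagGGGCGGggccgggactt
The Calca window held the CRE core 65 bases before the start and a GATA core on the opposite strand 218 bases before it. Ramp1 held none of these motifs, and Vipr2 held a GC box 17 bases before the start. Of all 32851 windows of this length, 17.8% held TGACG, 22.6% held GATAA and 32.7% held GGGCGG. The full palindrome TGACGTCA, in 1.55% of all windows, was in none of the 8. Of the 8 windows, TGACG was in 2 (Calca and Vipr1), GATAA in 2 (Calca and 1 window of Nmur1) and GGGCGG in 4 (Calcrl, Vipr1, Ramp3 and Vipr2). These matches describe letters and not binding, and no searched motif was in all 8 windows.

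Ramp3, the adrenomedullin receptor partner, was high in naive replicate 3 and low in the other naive libraries. Naive replicates 1 to 3 gave 52.3, 37.1 and 711 CPM. The allografts had 260, 313, 266 and 274 CPM. Every allograft lay between naive replicate 3 and the other 2 naive libraries. This gave a log2 fold change of -0.03 (SE 0.91, edgeR adjusted p = 0.998), and -0.53 (SE 0.83, adjusted p = 0.793) without naive replicate 2. Without naive replicate 3 it was 2.39 (adjusted p = 0.0667). Ramp3 shares 101 exon bases with the antisense pseudogene Gm11978, which had at most 2.04 CPM, and no use of strand is stated for the counts.

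Calcrl, the receptor that the RAMPs serve, was low and even across libraries. Its level was 22.3, 13.6 and 14.3 CPM in order of naive replicates 1 to 3. The allografts had 21.6, 33.3, 20.4 and 32.2 CPM. The groups overlapped through naive replicate 1. The log2 fold change was 0.49 (SE 0.42, edgeR adjusted p = 0.792), and 0.51 (SE 0.42, adjusted p = 0.553) without naive replicate 2. Calcrl is also an endothelial gene. In naive replicate 2, the library with the highest endothelial sum, Calcrl had its lowest level, 13.6 CPM. Per 100 Gata3 counts it had 39.0 there against 1.48 to 4.34 elsewhere, but Gata3 was itself at 34.8 CPM against 654 to 970 CPM. The cell source of Calcrl was not tested.

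The RAMP transcripts exceeded Calcrl in every library, and their composition differed widely among the naive libraries. Summed RAMP FPKM was 16.4 to 222 times the Calcrl FPKM in naive and 44.0 to 69.7 times in allograft libraries. Ramp1 made up 81.2%, 15.9% and 21.005% of the summed FPKM of Ramp1, Ramp2 and Ramp3 in naive replicates 1 to 3. In allograft replicates 1 to 4 its share was 38.7%, 31.5%, 32.8% and 31.0%, and Ramp3 made up most of the rest. The difference in mean share, -5.87 percentage points, was far within the naive spread (39.4% ± 36.3 in naive, 33.5% ± 3.54 in allograft, exact two-sided permutation p = 0.857 over 35 splits). With so few splits this test could not give a p under 0.05. Without naive replicate 1 the difference was 15.03 points, and every allograft share was above both remaining naive shares. The exact permutation p of 0.133 was then the lowest that these libraries allow. Without naive replicate 2 the difference was -17.6 points (exact permutation p = 0.667).

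Ramp2, the remaining adrenomedullin partner, was high in naive replicate 2 alone. Naive replicates 1 to 3 gave 0, 38.2 and 0.275 CPM. The allografts had 1.93, 2.10, 0.245 and 5.57 CPM. Its log2 fold change was -2.95 (edgeR adjusted p = 0.756), and 4.07 (adjusted p = 0.329) without naive replicate 2. Ramp2 shares 1103 exon bases on the same strand with Vps25, so its counts are uncertain.

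**Figure D3:**
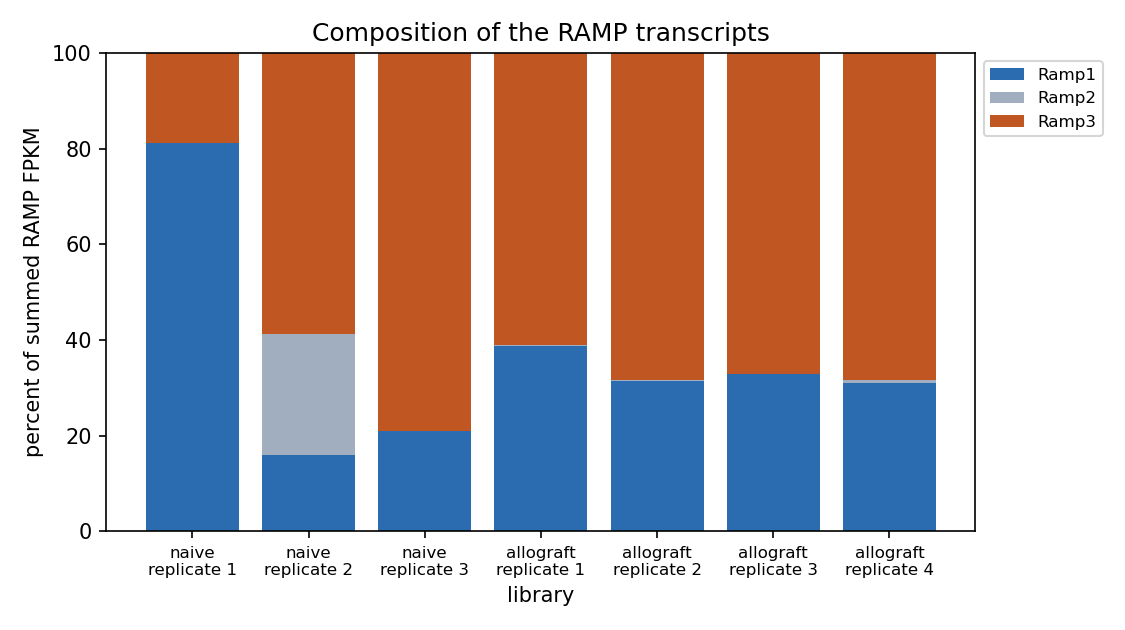
Share of Ramp1, Ramp2 and Ramp3 in their summed FPKM, in percent, for each library. The 4 allografts hold 31.0% to 38.7% Ramp1, the naive libraries 15.9% to 81.2%, and Ramp2 is visible in naive replicate 2 (25.3%).

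Nmur1, the neuromedin U receptor, was highest in naive replicate 1. Its level was 86.7, 0 and 15.1 CPM in order of naive replicates 1 to 3. The allografts had 23.6, 10.5, 19.2 and 13.4 CPM. Naive replicate 3 fell inside the range of the allografts, so the groups overlapped with and without naive replicate 2. The log2 fold change was -1.02 (SE 1.61, edgeR adjusted p = 0.916), and -1.63 (SE 0.69, adjusted p = 0.248) without naive replicate 2. It turned to 1.08 (adjusted p = 0.794) without naive replicate 1.

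Vipr1 was close to the limit of detection. It had 10, 0 and 0 counts in naive replicates 1 to 3. In allograft replicates 1 to 4 it had 0, 44, 53 and 52 counts, or 0, 1.36, 1.297 and 1.79 CPM. Allograft replicate 1 matched the naive libraries, so the groups overlapped. The log2 fold change was 4.04 (SE 2.27, edgeR adjusted p = 0.653), a value that depends on the prior count where libraries are at 0. It was 3.47 (adjusted p = 0.481) without naive replicate 2.

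Because naive replicate 2 held few ILC2 transcripts, the counts were also set against Gata3, a transcription factor among the ILC2 markers, in the same library. This scale was chosen after the data were seen and is given without a test. Gata3 itself stood at 654, 34.8 and 970 CPM across naive replicates 1 to 3. The allografts had 756, 768, 706 and 876 CPM. In naive replicate 2 Il1rl1 was at 6.79 CPM against 343 to 756 CPM elsewhere, and 9 kidney genes summed to 10523 CPM. The cells that gave its Gata3 counts were not tested, so ratios to Gata3 in this library may not be ratios to ILC2 RNA. Per 100 Gata3 counts, Calca had 124, 123 and 150 counts in the naive libraries. The allografts had 72.9, 69.9, 82.2 and 55.5. On this scale naive replicate 2 stood with the other naive libraries, and every allograft was below every naive library (132 ± 15.6, SD, n = 3, against 70.1 ± 11.1, n = 4). Calca was the only 1 of the 7 genes with this separation, which 6.44% of all genes showed. Per 100 counts of 11 ILC2 markers Calca was again separated, with 13.02, 22.2 and 18.4 in naive libraries and 6.88 to 8.18 in allografts, where 7.23% of all genes were.

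Ramp1 followed Gata3 into naive replicate 2 as well, with 75.5, 63.2 and 42.7 counts per 100 Gata3 counts in naive libraries and 31.0 to 47.7 in allografts, so that the groups overlapped through naive replicate 3. Ramp3 had 7.99, 107 and 73.3 in naive libraries and 31.3 to 40.8 in allografts. Vipr2 had 12.6, 0 and 10.8 in naive libraries and 3.92 to 7.19 in allografts. Nmur1 had 13.3, 0 and 1.55 in naive libraries and 1.37 to 3.13 in allografts. Both G protein-coupled receptors were thus at 0 in naive replicate 2 although 1942 counts of Calca and 1002 counts of Ramp1 were found there.

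**Figure D4:**
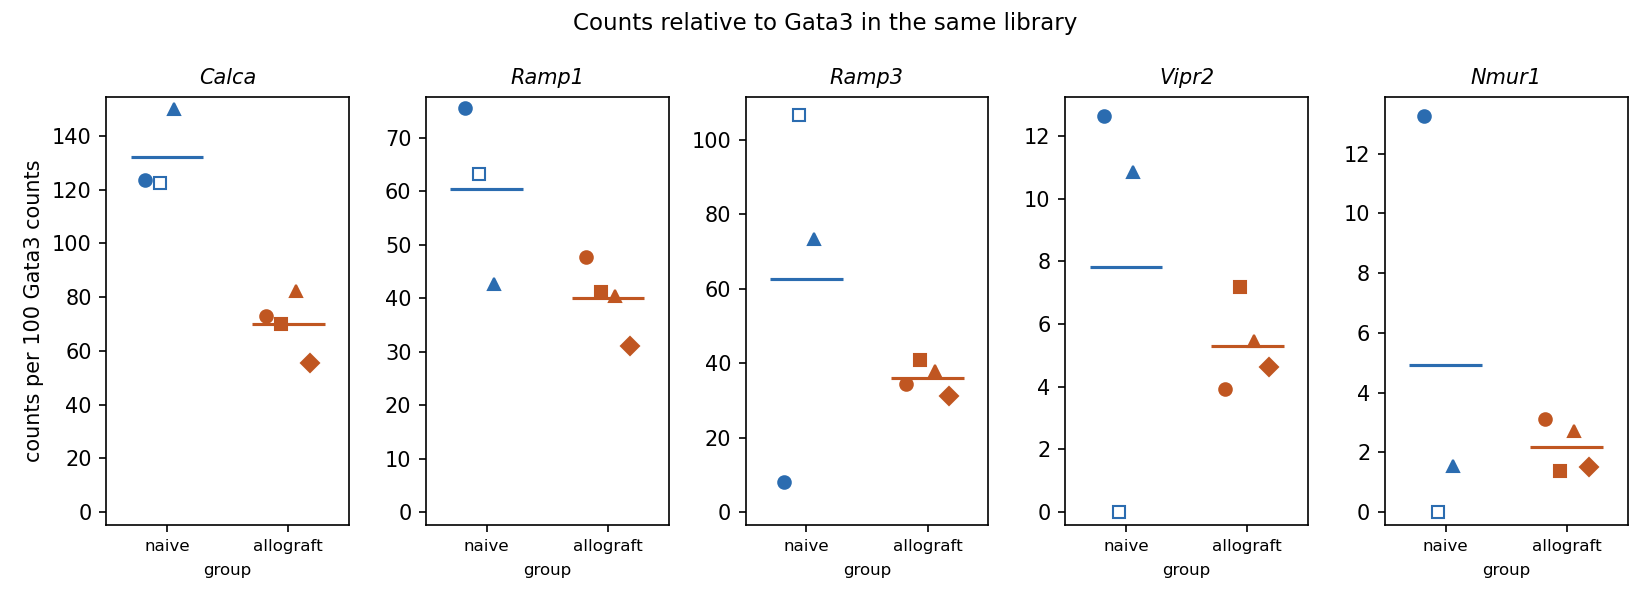
Counts per 100 Gata3 counts of the same library for Calca, Ramp1, Ramp3, Vipr2 and Nmur1, with a linear axis for each gene. Blue marks naive and orange allograft libraries, symbols give the replicate number as in the plot of levels, the open square is naive replicate 2 and bars are group means. All 4 allografts (55.5 to 82.2) lie below the 3 naive libraries (123 to 150) for Calca, and the groups overlap for the other 4 genes.

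Among the ligands of these receptors, only Calca, Calcb, adrenomedullin and Adcyap1 had any count. Of 9 ligand genes, 5 had no count in any library: Nmu, Nms, Vip, Adm2 and Iapp. Adcyap1, which encodes the peptide PACAP, had 3 counts in allograft replicate 2 and 0 elsewhere. Adm, the adrenomedullin gene, stood at 18.8, 42.2 and 124 CPM across naive replicates 1 to 3. The allografts had 46.1, 41.1, 39.4 and 29.4 CPM, inside the naive range. The log2 fold change of Adm was -0.85 (edgeR adjusted p = 0.735).

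Of the remaining genes of these families, Nmur2, Adcyap1r1 and Calcr were not detected outside naive replicate 2. Nmur2 had no count in any library. Adcyap1r1, the PACAP receptor, and Calcr, the calcitonin receptor, had 0.835 and 1.91 CPM in naive replicate 2 and 0 counts in the other 6 libraries. Crcp, which encodes a protein that couples the CGRP receptor to its signalling pathway, stood at 38.9, 20.7 and 3.58 CPM across naive replicates 1 to 3. Its allograft values were 14.9, 12.0, 20.3 and 17.8 CPM, and its log2 fold change was -0.58 (edgeR adjusted p = 0.879).

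The downstream machinery of the receptors was largely expressed, and none of its genes passed the edgeR test or DESeq2 with all 7 libraries. DESeq2 gave no adjusted p there for Adcy6, of the Gs and cAMP list, and Prkcd, of the Gq and calcium list. Of 31 genes of Gs and cAMP signalling, 25 were tested, with 0 called and a median log2 fold change of -0.06. Prkar1a, a regulatory subunit of protein kinase A and the most abundant of them, stood at 960, 459 and 1016 CPM across naive replicates 1 to 3 and 1156 to 1273 CPM in the allografts (log2 fold change 0.43, edgeR adjusted p = 0.760). Rapgef3, a cAMP-activated exchange factor, stood at 0, 22.6 and 11.5 CPM across the naive libraries and at most 1.09 CPM in the allografts (-4.77, adjusted p = 0.568). All 19 genes of Gq and calcium signalling were tested, with 0 called and a median of 0.30. Gna15, a G protein alpha subunit of the Gq class found in blood cells, stood at 112, 0.550 and 51.0 CPM across naive and 68.2 to 107 CPM in allograft libraries (0.67, adjusted p = 0.923). Plcb1, a phospholipase C, stood at 0, 27.9 and 77.7 CPM across naive and 1.48 to 5.49 CPM in allograft libraries (-3.76, adjusted p = 0.562).

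Among 20 genes that cAMP and CREB act through or induce, 0 were called and the median was -0.09. Sik2, a salt-inducible kinase that restrains CREB coactivators, stood at 7.09, 10.2 and 17.1 CPM across naive and 28.3, 48.7, 42.2 and 34.5 CPM in allograft libraries, above all naive libraries, as for 12.5% of all genes (log2 fold change 1.52, SE 0.48, edgeR adjusted p = 0.327). Fos, an immediate early gene, stood at 2044, 3216 and 8410 CPM across naive and 1917 to 2595 CPM in allograft libraries (-1.13, adjusted p = 0.579).

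Of 17 adrenergic, cholinergic and dopamine receptor genes, 5 were tested and 0 were called by edgeR. DESeq2 on the same 7 libraries called 2 of them higher, Adra1b and Chrna2, where 4.31% of all genes with an adjusted p were called higher. Adra1b, the alpha-1B adrenergic receptor, had 0 counts in the 3 naive libraries and 68, 47, 10 and 54 counts in the allografts. Its mean was at least 18.5-fold higher when each naive library was set at 3 counts (edgeR adjusted p = 0.151, and 0.0796 without naive replicate 2, DESeq2 adjusted p = 3.77e-05, and 0.00015 without it). Such a limit covers counting error only. Naive replicates 1 and 3 also had fewer genes with any count than every allograft, and the part of this in the result was not tested. Chrna2, a nicotinic receptor subunit, had 0 counts in the naive libraries and 30, 13, 4 and 29 counts in the allografts, at least 7.91-fold higher by the same measure (edgeR adjusted p = 0.171, DESeq2 adjusted p = 0.00263). Adra1b and Chrna2 passed the filter on low counts only through their allograft libraries, the group in which they were higher. Chrnb1, another nicotinic subunit, stood at 0, 5.10 and 0 CPM across naive and 1.35 to 7.16 CPM in allograft libraries (0.75, adjusted p = 0.965). Of 21 further neuropeptide receptor genes, 1 was tested and 0 were called, and 10 had no count in any library.

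Without naive replicate 2, edgeR called 3 genes of these lists, all higher in allografts. Chrnb1, with 0 counts in naive replicates 1 and 3, was at least 62.2-fold higher with each of these set at 3 counts (adjusted p = 0.0482). Adcy6, an adenylyl cyclase, was at least 58.3-fold higher (adjusted p = 0.0437), with 0 counts in naive replicates 1 and 3 but 44.0 CPM in naive replicate 2 and 1.86 to 6.02 CPM in allografts. Chrnb1 and Adcy6 thus passed the filter in this comparison only through their allograft libraries. With all 7 libraries their log2 fold changes were 0.75 and -2.46 (edgeR adjusted p = 0.965 and 0.823). Prkcd, the delta isoform of protein kinase C, had 12.1 and 17.3 CPM in naive replicates 1 and 3, 66.4 CPM in naive replicate 2 and 56.9 to 83.0 CPM in allografts (log2 fold change 2.17, adjusted p = 0.0433). Over all genes 3.0% were called higher in this comparison. DESeq2 without that library called these 3 genes and 4 more of the lists, all higher, where 12.6% of all genes with an adjusted p were called higher. The 4 were Adra1b and Chrna2, Grk3, a kinase that desensitises G protein-coupled receptors, and Crtc1, a CREB coactivator. Grk3 had 0 and 0.482 CPM in naive replicates 1 and 3, 12.8 CPM in naive replicate 2 and 1.64 to 12.1 CPM in allografts (DESeq2 adjusted p = 0.0325, edgeR adjusted p = 0.266). Crtc1 stood at 0.170 and 0 CPM in naive replicates 1 and 3, 5.78 CPM in naive replicate 2 and 5.02 to 10.4 CPM in allografts (DESeq2 adjusted p = 1.02e-09, edgeR adjusted p = 0.0978). Adcy6, Prkcd, Chrna2, Grk3 and Crtc1 were chosen after their values were seen. Without that library the median log2 fold change was -0.06 for the Gs and cAMP list, 0.10 for the Gq and calcium list and -0.56 for the CREB list, beside 0.23 over all genes.

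Across the 7 libraries, Calca, Ramp1, Vipr2 and Nmur1 varied together, with Pearson's r of log2 CPM between 0.901 and 0.986 for their 6 pairs. All of these pairs share the low values of naive replicate 2. Ramp3 correlated with these 4 at 0.361 to 0.625, and Calcrl with them at -0.153 to 0.103. The genes most like each member are given as a description over 7 libraries. For Vipr2 they were Il17rb (r = 0.997), the interleukin 25 receptor subunit of ILC2s, Xlr4a (0.997) and Ppm1d (0.997). For Ramp3 they were Il10ra (0.999), the interleukin 10 receptor, Tmem131l (0.994) and Gba2 (0.994). For Ramp1 they were Fam212a (0.999), Knstrn (0.997) and Hist1h3a (0.997), and for Nmur1 Bves (0.999), Aldh18a1 (0.995) and Ube2t (0.995). For Calca they were Gm6225 (0.997), 4931406G06Rik (0.995) and Zfp992 (0.994). For Calcrl they were Map7d1 (0.972), Srsf10 (0.965) and Tnrc6a (0.964), and for Vipr1 they included Rad21 (0.969) and Gm43984 (0.949). Such values were common: of 9666 genes compared, 931 exceeded 0.9 for Vipr2 and 596 for Calca, but 16 for Calcrl.

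Il10ra illustrates the pattern of Ramp3. Its level was 9.95, 7.47 and 389 CPM in order of naive replicates 1 to 3 and 105 to 135 CPM in the allografts, so that naive replicate 3 was again above and both other naive libraries below every allograft.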

How the data were processed

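RNA of sorted heart ILC2s was measured in 3 naive and 4 allograft libraries, grouped by sample title. The authors deposited whole-number counts per gene and FPKM values for 55335 identifiers. Per the submitters' processing notes, FastQC 0.11.5, STAR 2.5.3a, StringTie 1.3.1c, DESeq2 1.16.1 and the build mm10 were used; their roles, the annotation and any use of strand are not given in the sources used here. Every table column matched 1 sample. cDNA was amplified before library construction without molecular identifiers, so the limits for a count of 0 cover counting error only. CPM were computed from the deposited count totals.

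The test was edgeR 4.0.16 (R 4.3.3, quasi-likelihood, TMM, filterByExpr, Benjamini-Hochberg at 0.05 over 17015 genes), checked on simulated data. Apart from the genes given a known fold, the simulated libraries shared a common mean profile and dispersion. The check therefore does not show how the test behaves with a library such as naive replicate 2. Standard errors are the log2 fold change over the root of F. Alternatives used DESeq2 1.42.0, limma 3.58.1, other filters, a replicate block and each library left out. Members, lists and rules were chosen with earlier results of these data known. Named were the 7 members, all ligands and receptors of their families, for each other list the genes past the threshold or else those with the smallest p and the highest FPKM, and for each member the 3 genes of highest Pearson's r (average log2 CPM of at least 3, prior count 2). Some genes that these rules and lists name are not reported here. Coordinates are from GENCODE M21 and promoters from RefSeq.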

Additional observations from a re-analysis of the deposited data

Results flagged for a closer look

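Of 40 values examined in the 4 allograft libraries for a single library far from the other 3, 2 stood apart, where chance gives 2. Adcyap1 had 0.0926 CPM in allograft replicate 2, which is 3 counts, and 0 in the other allografts. Vipr1 had 0 counts per 100 Gata3 counts in allograft replicate 1 and 0.177 to 0.204 in the other allografts.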

How the results depend on the processing

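The number of genes called over the whole table depended on the processing: it was 6 in edgeR, 1224 with DESeq2, 201 and 76 with limma on log2(FPKM + 0.1) and log2(FPKM + 1), 3205 with DESeq2 without naive replicate 2, and 0 to 560 when single libraries were left out. With the replicate block, 0 genes and 0 of the 7 were called, with 252 genes and 0 of the 7 at an unadjusted p under 0.05. Deviations from the group means had r of 0.0169, -0.0196 and 0.0360 between libraries of the same number. Between libraries of different numbers r was -0.087 to 0.076. With so few libraries these values cannot decide whether the numbers pair the libraries. Of the 7 genes, 0 were called in every setting but DESeq2 without naive replicate 2, which called 3. Among the listed genes other than these 7, edgeR called 0 genes and DESeq2 2 (Adra1b and Chrna2) with all 7 libraries, and 3 and 7 without naive replicate 2. DESeq2 size factors moved the median log2 fold change of all genes from -0.01 to -0.20.

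Directions of uncalled genes changed as follows. In limma with a pseudocount of 0.1 and then 1, the log2 fold change was 1.31 and 0.30 for Nmur1, 1.27 and 0.28 for Vipr2, 0.84 and 0.79 for Ramp1, 1.27 and 1.25 for Ramp3, 0.50 and 0.48 for Calca, and 0.11 and 0.023 for Crcp; Calcb gave 0.15 with 0.1. With the replicate block it was 0.97 for Nmur1, 0.10 for Vipr2, 0.58 for Ramp1, 1.28 for Ramp3 and 0.21 for Calca. Over the fits without 1 library it ran -1.63 to 1.08 for Nmur1, -0.60 to 0.40 for Ramp1, -0.53 to 2.39 for Ramp3, -1.13 to 0.32 for Calca, -0.84 to 7.44 for Calcb and -3.77 to 4.07 for Ramp2. DESeq2 without naive replicate 2 gave 3.95 for Ramp2 and -0.0057 for Gna15. The difference in Ramp1 share was 2.29 points with CPM in place of FPKM, and -17.6 to 15.03 points without single libraries. The cause of these changes was not tested. Vipr1 could not be fitted without allograft replicates 2, 3 or 4 or with a mean of at least 50 counts, where its counts were filtered out.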

Other observations

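Neuronal transcripts were near 0. The 10 neuronal genes summed to 0 to 0.242 CPM in naive and 0.825 to 2.74 CPM in allograft libraries, and Snap25, Th, Dbh and Chat had 0 counts in all 7 libraries. Elavl4 had 0 counts in the naive libraries and 0.840, 0.370, 2.06 and 0.103 CPM in allograft replicates 1 to 4. The sum of 8 lung genes was 0.716, 1.89 and 261 CPM across naive replicates 1 to 3, and 84.1 to 468 CPM in the allografts.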
